A study of Mus musculus with 4 samples.

Results

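A set of 10 genes of adhesion, migration and marrow homing was followed in mouse plasma cells and myeloma cells: the chemokine receptor gene Cxcr4, the integrin chain genes Itga4, Itgb7, Itgb1, Itga6 and Itgal, the adhesion genes Epcam, Icam1 and Cd44, and the egress receptor gene S1pr1. They were chosen by name as 10 of the 24421 genes in the tables, and all 10 were found in each. The 4 single-cell RNA libraries came from C57/BL6 mice and from cells sorted as CD138+ B220-, the surface profile of plasma cells. The wild-type library (1 library, age-matched control bone marrow, no transgene) was compared with bone marrow (2 libraries) and lymph node (1 library) cells labelled multiple myeloma and donor derived, which carry the V{kappa}*MYC transgene, an Nras allele written LSL Q61R/+ and a Cre named IgG1-Cre, with the word recipient beside it. These are called VQ below, and the labels name the set VQ-D2 without explaining it. In V{kappa}*MYC mice a MYC transgene under immunoglobulin kappa control becomes active through somatic hypermutation in germinal centre B cells, and the mutant Nras allele is silent until Cre, here driven with IgG1, removes its stop cassette, so both changes are limited to the B lineage. The labels give neither ages nor the number of animals behind a library, so each p-value below measures only the spread between the 2 VQ bone marrow libraries, which may be technical.

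Cells were taken by the share of their transcripts that came from Jchain, the joining chain of secreted IgM and IgA: wild-type cells with at least 5% and VQ cells with under 5%. This kept 106 of 163 wild-type cells, 226 of 245 and 170 of 188 cells of VQ bone marrow libraries 1 and 2, and all 185 VQ lymph node cells, 687 of 781 in all. Only 5, 3, 2 and 0 cells of these libraries, in the same order, lay between 4% and 6%. The kept cells held 204002, 1045005, 444437 and 803752 transcripts counted by molecular identifier (UMIs), with medians of 1998.5, 4700, 2646 and 3978 UMIs per cell, so a wild-type cell was read the least deeply. No cell barcode was shared by any pair of libraries. All 13 plasma cell markers had UMIs in each library, but most stood lower in VQ cells. Of the 12 besides Jchain, 10 were lower and 1 higher (Fkbp11) in VQ bone marrow than in wild-type cells, and 9 lower and 1 higher in the lymph node, at an edgeR adjusted p under 0.05. Over all genes tested, 12.8% were lower and 17.1% higher in bone marrow, and 12.2% and 16.4% in the lymph node. Wild-type and VQ cells were chosen on Jchain in opposite directions, and whether that has a part in the marker differences was not tested. Sdc1 (CD138), the sorted surface protein, was at 1057 CPM (counts scaled to a common library total) in wild-type cells, 674 and 620 in VQ bone marrow and 556 in the lymph node (adjusted p = 0.000357 and 2.82e-05). Mzb1, a chaperone of antibody secretion, was at 5796, 42.4, 49.5 and 1312 CPM in the same order, and Prdm1, which encodes the plasma cell regulator BLIMP1, at 436, 63.1, 43.0 and 72.3; these genes and Fkbp11 were picked after their values were seen. Myc had 7 UMIs in wild-type cells and 1320, 646 and 1113 in VQ cells. UMIs of 9 neutrophil marker genes numbered 13 in wild-type cells, 1049 and 1295 in VQ bone marrow and 1 in the lymph node, and those of 8 T cell marker genes numbered 5, 79, 24 and 7. Between 1 and 28 of the kept cells of a library carried at least 2 UMIs of B cell precursor, T cell, neutrophil, macrophage or erythroid markers: 12 wild-type cells, 28 and 12 VQ bone marrow cells and 1 lymph node cell. They are called cells with other-type markers below.

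Plasma cells are held in bone marrow by a chemokine, CXCL12, which is made by stromal cells and read by the receptor CXCR4, and by integrins, which are pairs of an alpha and a beta chain that bind matrix and endothelial ligands. The alpha 4 chain pairs with beta 1 to bind VCAM-1 and fibronectin, or with beta 7 to bind MAdCAM-1 of gut vessels, while alpha L pairs with beta 2 (Itgb2) to form LFA-1, whose ligand is ICAM-1. Exit from lymphoid tissue follows sphingosine 1-phosphate, sensed by S1PR1. Myeloma cells use many of the same receptors to settle in marrow.

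The promoters of Epcam, Itgb7 and Itgb1 are shown because, among the genes with wild-type UMIs, Epcam gave the widest rise and Itgb7 the widest fall, and Itgb1 encodes the other beta chain that pairs with alpha 4. Each line holds the 250 bases before the start site, 5′ to 3′ on the gene's strand, from RefSeq on GRCm38.p6, and capitals mark a GC box (GGGCGG on either strand), the motif of SP and KLF factors. Epcam lies at chr17:87635729-87635978 (plus strand), Itgb7 at chr15:102231936-102232185 (minus strand) and Itgb1 at chr8:128685404-128685653 (plus strand).
Epcam: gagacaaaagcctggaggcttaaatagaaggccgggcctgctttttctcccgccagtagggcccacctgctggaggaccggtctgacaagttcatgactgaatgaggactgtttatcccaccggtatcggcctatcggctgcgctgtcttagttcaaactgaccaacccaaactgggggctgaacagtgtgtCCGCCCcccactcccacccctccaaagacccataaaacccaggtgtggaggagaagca
Itgb7: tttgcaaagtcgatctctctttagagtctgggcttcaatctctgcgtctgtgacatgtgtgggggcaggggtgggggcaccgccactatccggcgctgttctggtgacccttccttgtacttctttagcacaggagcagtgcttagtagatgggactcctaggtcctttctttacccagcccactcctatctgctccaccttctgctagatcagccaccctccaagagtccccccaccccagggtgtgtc
Itgb1: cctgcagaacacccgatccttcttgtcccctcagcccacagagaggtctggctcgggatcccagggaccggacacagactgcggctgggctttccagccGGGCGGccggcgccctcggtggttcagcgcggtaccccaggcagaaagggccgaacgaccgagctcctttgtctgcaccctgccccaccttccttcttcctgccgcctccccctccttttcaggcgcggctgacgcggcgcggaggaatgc

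Promoters were found for 7 of the 10 genes, with Itga6, Itgal and S1pr1 not matched. The motifs reported are 3, each searched on both strands: the MYC and MAX E-box CACGTG, the GC box GGGCGG and the AP-1 site TGANTCA; only the GC box gave matches, so no matches of different motifs overlap. An NF-kB consensus was searched as well and left out of the reported set after it had given no match in these windows. None of the 7 windows held the E-box or the AP-1 site as spelled here, which 6.02% and 6.75% of all 32851 promoter windows of the same length held. The GC box, held by 32.7% of all windows, was present in 5 of the 7: once in Epcam, Itgb1, Itga4 and Icam1 and 3 times in Cxcr4. In Epcam it lay 58 bases and in Itgb1 151 bases before the start, and Itgb7 and Cd44 held none. The GC content of the windows was 56.4% for Epcam, 56.0% for Itgb7 and 68.0% for Itgb1, beside a median of 52.4% over all windows.

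The genes split into a group that was higher in VQ bone marrow cells and a group that was lower. Counts were summed over the kept cells of each library, and levels are CPM, the summed counts scaled to a common library total, after TMM scaling, which aligns the libraries on the bulk of their genes. In such sums, fewer expressing cells and less RNA per cell cannot be told apart. Of the 9 genes that passed the count filter, 3 were called higher (Epcam, Itgb1 and Itga6) and 4 lower (Itgb7, Itgal, Cd44 and Cxcr4) in VQ bone marrow than in wild-type cells, by edgeR's quasi-likelihood test at an adjusted p under 0.05. Across all 8286 genes tested, 29.9% were called, 17.1% higher and 12.8% lower. The median log2 fold change was -1.04 over the 9 genes and 0.20 over all genes tested. S1pr1 did not pass the filter. Itga6 had 0 UMIs in wild-type cells and passed only through the VQ libraries, where it is high, so its call carries no weight. Itgb7 passed only through the wild-type library, where it is high, so its call carries no weight either. Over the 8 genes with UMIs in both groups, Itgb7 included, 2 were higher and 4 lower, with a median of -1.14. Between the VQ lymph node and wild-type libraries, 4 genes were higher (the same 3 and Itga4) and 4 lower (the same 4), beside 28.7% of all genes called, 16.4% higher and 12.2% lower, and the medians were 0.12 and 0.18. Without Itga6 but with Itgb7 they were 3 higher and 4 lower, with a median of -0.58. Both comparisons use the same wild-type library, so their agreement is not independent.

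**Figure D1:**
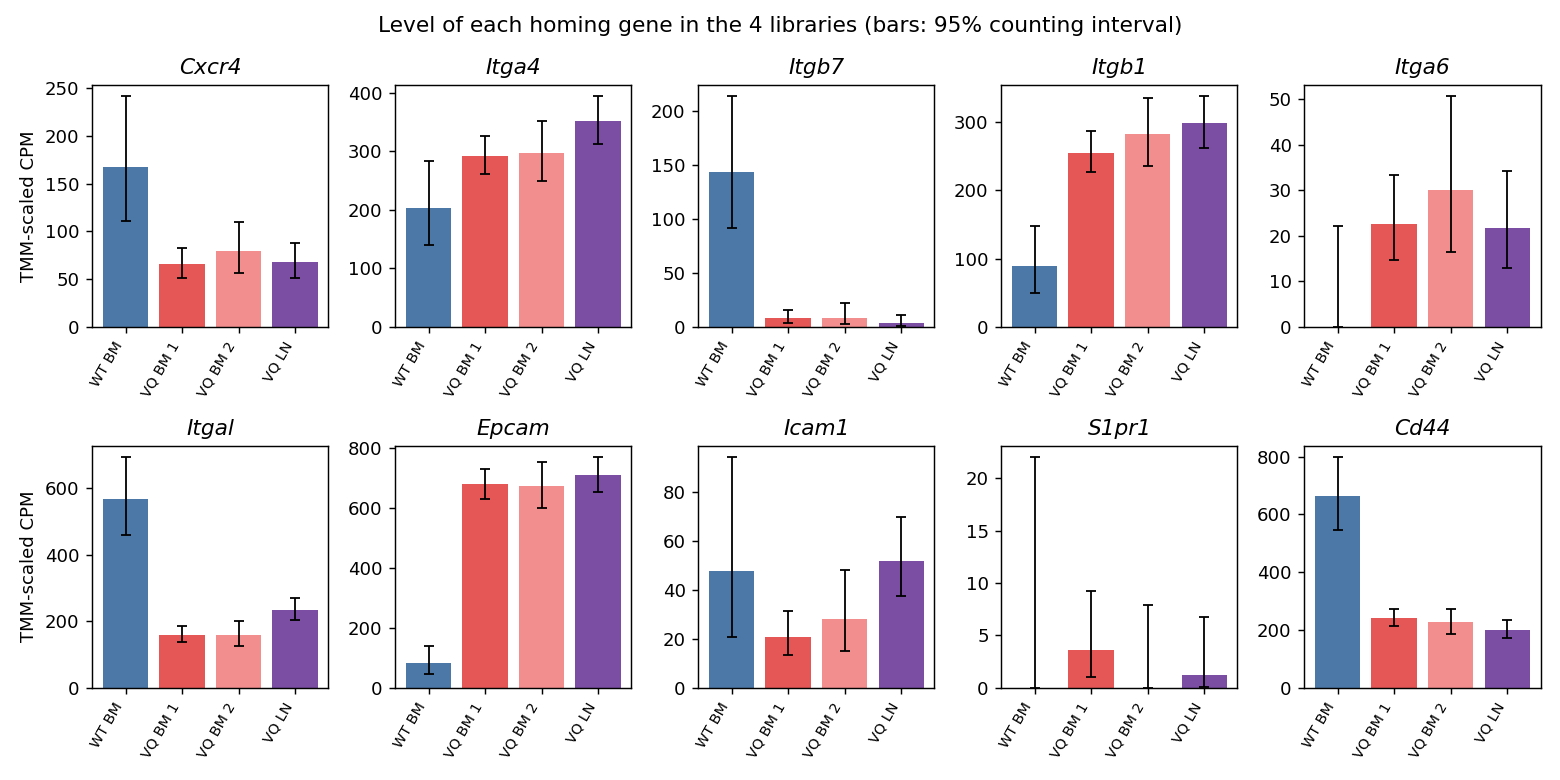
Level of each of the 10 homing genes in the 4 libraries, in TMM-scaled CPM of summed cells (linear axis from 0, a separate scale for each gene), with bars for the exact 95% counting interval of each library. Epcam and Itgb1 are higher and Itgb7, Itgal, Cd44 and Cxcr4 lower in all 3 VQ libraries than in the wild-type library.

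Cxcr4 encodes the receptor for CXCL12 and lies on chromosome 1 from 128588199 to 128592293 (GRCm38, GENCODE vM21). It had 28 UMIs (167 CPM) in wild-type cells, 73 and 37 UMIs (65.8 and 79.6 CPM) in the VQ bone marrow libraries and 56 UMIs (67.5 CPM) in the lymph node. The 3 VQ libraries lay close together and below the wild-type library. VQ bone marrow cells averaged 72.7 ± 9.78 CPM (SD, n = 2), a level 2.39-fold lower than in wild-type cells (95% counting interval 1.52 to 3.65), and the log2 fold change was -1.24 (SE 0.34, edgeR adjusted p = 0.00211). The lymph node level was 2.48-fold lower than wild type (adjusted p = 0.00293). The bone marrow call was lost with DESeq2, which gave a log2 fold change of -1.20, and with cells thinned to equal depth, which gave -1.63. Without the Jchain rule, over all cells, the change was -0.81 and was not called either. The share of cells with a Cxcr4 UMI was 18.9%, 23.0%, 19.4% and 18.4% in the 4 libraries as deposited, and 8.0%, 2.26%, 5.96% and 1.08% once each cell was thinned to 500 UMIs. These orders differ, and the thinned shares rest on 8, 5, 9 and 2 cells, so no order was read from them.

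Most other chemokine and guidance receptors had too few UMIs to be tested, with Ccr10 and P2ry10 as exceptions in wild-type cells. Of 27 listed, 26 were in the tables, 11 were at 0 in every library and 4 passed the filter, with 0 called higher and 2 called lower, in VQ bone marrow as in the lymph node. These were P2ry10, a lysophospholipid receptor, with 20 UMIs in wild-type cells against 4, 1 and 1 in the VQ libraries (log2 fold change in bone marrow -5.16, adjusted p = 5.01e-09), and Ccr10, the receptor for CCL27 and CCL28. Ccr10 was at 155 CPM in wild-type cells, 70.3 and 68.9 in VQ bone marrow and 57.8 in the lymph node (log2 fold change in bone marrow -1.15, adjusted p = 0.00646). The Ccr10 call was lost without TMM scaling, with a log2 fold change of -0.79 (adjusted p = 0.0630), and against the 37 wild-type cells that lacked a UMI of MHC class II genes, with -0.29 (adjusted p = 0.830). P2ry10 reached the test only through the wild-type library, where it is high, so its calls carry no weight. The 4 tested genes had a median of 2.66, or of -0.58 when the 2 genes with 0 UMIs in wild-type cells are set at their lower bounds. Among 19 tested of 26 genes for chemokine receptor signalling and desensitisation, 1 rose and 6 fell in VQ bone marrow and 1 rose and 7 fell in the lymph node, with medians of -0.09 and -0.31. Beside these lists, 29.9% of all genes tested were called in bone marrow and 28.7% in the lymph node. Gnb1, a G protein beta subunit, rose (209 CPM against 454 and 521, adjusted p = 1.70e-05), while Rgs10, which turns off G protein signals (287 against 52.3 and 64.6, adjusted p = 1.39e-12), and Dock2, which activates RAC during lymphocyte migration (107 against 22.5 and 12.9, adjusted p = 1.31e-05), fell. None of these bone marrow calls was kept under every alternative that gave a test. Dock2 had only 18 UMIs in wild-type cells and 25 and 6 in VQ bone marrow.

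Itga4 encodes the alpha 4 chain and lies on chromosome 2 from 79255426 to 79333123, where Cerkl overlaps it on the opposite strand. Its UMIs numbered 34 in wild-type cells, 462 over the VQ bone marrow pair and 291 in the lymph node. The level was 203 CPM in wild-type cells, 292 and 297 CPM in the bone marrow libraries and 351 CPM in the lymph node. The VQ bone marrow mean of 295 ± 3.49 CPM (SD, n = 2) was above the wild-type level, but the difference was not called (log2 fold change 0.53, SE 0.27, adjusted p = 0.118). It was called without TMM scaling, with a log2 fold change of 0.90 (adjusted p = 0.00310), the upper end of a range that began at -0.015 across the settings. The wild-type cells left out by the Jchain rule held more Itga4 than the kept ones (433 against 167 CPM without TMM). The lymph node level was 1.73-fold higher than wild type (log2 fold change 0.79, SE 0.28, adjusted p = 0.0222), a call that 7 of the alternatives did not keep. That log2 fold change ranged from 0.09 to 1.12 across the settings.

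Itgb1 encodes the beta 1 chain and lies on chromosome 8 from 128685654 to 128733200. It had 15 UMIs in wild-type cells, 283 and 131 in VQ bone marrow and 247 in the lymph node, or 89.5, 255, 282 and 298 CPM. Every VQ library was above the wild-type library and their counting intervals did not overlap its interval. The VQ bone marrow mean was 269 ± 19.0 CPM (SD, n = 2), 2.94-fold above wild type (95% counting interval 1.76 to 5.30; log2 fold change 1.57, SE 0.34, adjusted p = 3.42e-05), and the lymph node was 3.32-fold above it (adjusted p = 1.03e-05). With DESeq2 the bone marrow change was 1.59 and was not called. An Itgb1 UMI was seen in 10.4% of wild-type cells (95% exact interval 5.30 to 17.8), 59.7% and 49.4% of VQ bone marrow cells and 61.1% of lymph node cells. Thinned to 500 UMIs, the shares were 4.0% (1.10 to 9.93), 14.0% (9.73 to 19.3), 14.6% (9.36 to 21.2) and 10.8% (6.73 to 16.2). At equal depth the wild-type interval thus overlapped that of every VQ library. This leaves out 6, 5, 19 and 0 shallower cells.

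Itgb7, the gene of the beta 7 chain, went the other way. It lies on chromosome 15 from 102215995 to 102231944. Wild-type cells had 24 UMIs (143 CPM), VQ bone marrow cells 9 and 4 (8.11 and 8.61 CPM) and lymph node cells 3 (3.62 CPM), so all VQ libraries were far below the wild-type library. The VQ bone marrow level was 17.3-fold lower (95% counting interval 8.49 to 37.1; log2 fold change -4.08, SE 0.57, adjusted p = 4.09e-11), and the lymph node level was 39.6-fold lower (12.03 to 206; adjusted p = 5.72e-11). Itgb7 passed the count filter only through the wild-type library, where it is high. Its calls therefore carry no weight, and the counts stand as a description. A UMI of Itgb7 was found in 18 of 106 wild-type cells (17.0%), and in 6 of 226, 3 of 170 and 3 of 185 VQ cells.

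The few Itgb7 UMIs of VQ bone marrow lay in cells with other-type markers. All 9 UMIs of library 1 were in its 28 such cells and all 4 UMIs of library 2 in its 12 such cells. The other 198 and 158 VQ bone marrow cells held 0 Itgb7 UMIs, which allows a share of up to 1.52% and 1.90% of cells with a UMI (taken here as 3 counts over the number of cells). In the lymph node 1 of 3 UMIs was in the single such cell and 2 were in the other 184 cells. In wild-type cells 22 of 24 UMIs were in the 94 cells without other-type markers. The share of wild-type cells with an Itgb7 UMI was alike with and without such markers, at 2 of 12 (16.7%) and 16 of 94 (17.0%). With the cells with other-type markers left out, the Itgb7 level in VQ bone marrow was at least 73.4-fold lower than in wild-type cells, against a floor of 3 counts over both libraries. The cells with other-type markers were also shallow in VQ bone marrow, with medians of 1381 and 491 UMIs, and Sdc1 UMIs were present in 9 of 28 and 1 of 12 of them, against 167 of 198 and 115 of 158 of the others. Whether these are other cells that passed the sort, or pairs of cells, was not tested, and no doublet caller was run.

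**Figure D2:**
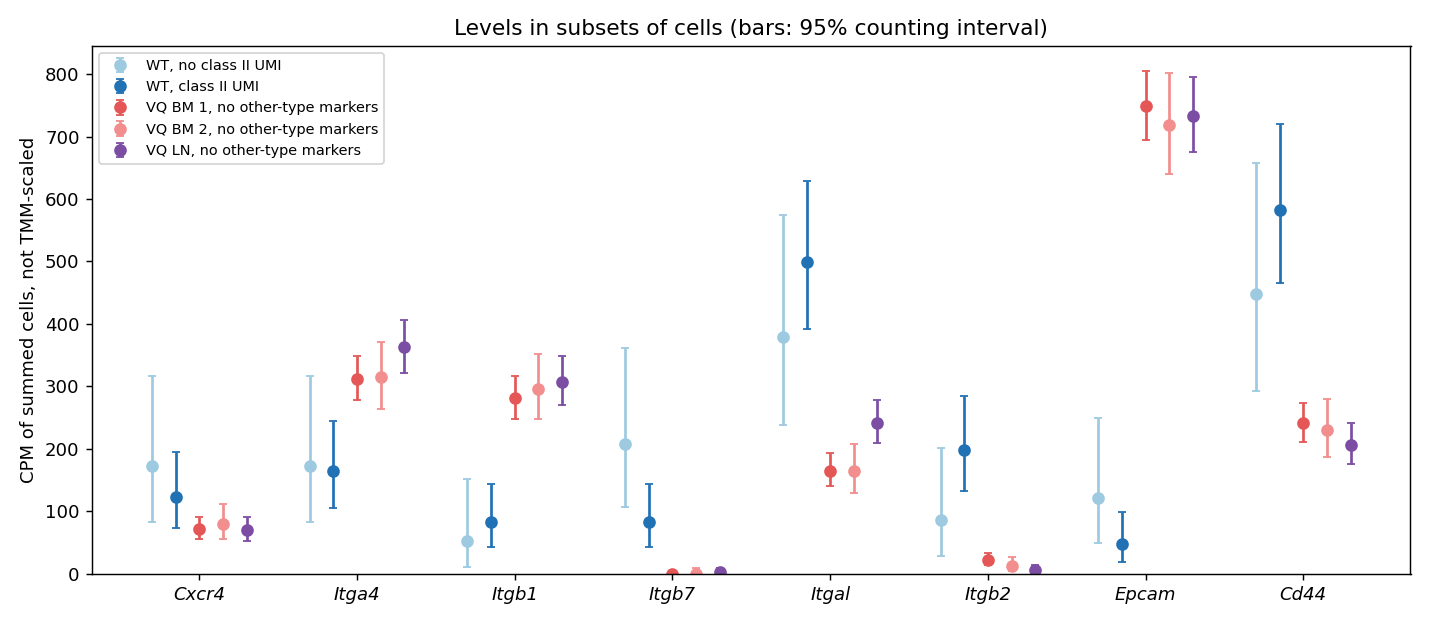
Level of 8 genes in subsets of the kept cells (CPM of summed cells without TMM scaling, linear axis), with bars for the exact 95% counting interval. Wild-type cells are split by a UMI of MHC class II genes (69 with, 37 without), and VQ cells are those without other-type markers, in which Itgb7 has 0 UMIs in both bone marrow libraries.

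Wild-type cells differ among themselves in MHC class II, carried by younger plasma cells, so each level was also read on both sides of that split. Itgb7 had 12 UMIs in each subset, or 82.2 CPM (42.5 to 144) in the 69 cells with and 207 CPM (107 to 362) in the 37 cells without a class II UMI, on the scale without TMM. The intervals overlap, and both subsets were above every VQ library. Epcam stood at 47.9 and 121 CPM and Itgal at 500 and 380 CPM in the same order, again with overlapping intervals.

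The remaining alpha chains of the list were Itga6 and Itgal. Itga6, the alpha 6 chain of laminin receptors, lies on chromosome 2 from 71745616 to 71858416 and overlaps 4 other annotated genes, 2 of them on its own strand. It had 0 UMIs in wild-type cells and 25, 14 and 18 in the VQ libraries (22.5, 30.1 and 21.7 CPM). Zero counts in 106 cells allow a share of up to 2.83% of wild-type cells with a UMI by the rule of 3 counts, or 3.42% as the upper limit of the exact 95% interval, and the other 57 wild-type cells held 0 as well. Against the floor of 3 counts VQ bone marrow was at least 1.38-fold and the lymph node at least 1.21-fold higher, and the 95% counting intervals of the folds start at 1.07 and 0.888, so that of the lymph node includes no difference. The adjusted p were 0.0269 and 0.0481, in a gene that reached the test only through its VQ counts. The bone marrow call was lost with a Jchain threshold of 10% and in either subset of wild-type cells, and the lymph node call also with other-type cells left out (adjusted p = 0.0713).

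Itgal encodes the alpha L chain of LFA-1 and lies on chromosome 7 from 127296260 to 127335138. It had 95 UMIs in wild-type cells, 177 and 74 in VQ bone marrow and 194 in the lymph node, or 567, 160, 159 and 234 CPM. All VQ libraries were below the wild-type library, the bone marrow pair the lowest. The bone marrow level was 3.56-fold lower (95% counting interval 2.78 to 4.52; log2 fold change -1.83, SE 0.22, adjusted p = 1.62e-14) and the lymph node level 2.43-fold lower (log2 fold change -1.28, SE 0.24, adjusted p = 2.25e-06). Thinned to 500 UMIs, 19.0% of wild-type cells and 9.95%, 7.95% and 9.19% of VQ cells had an Itgal UMI, against 50.9%, 46.5%, 29.4% and 59.5% as deposited. The thinned wild-type interval (95% exact, 11.8 to 28.1) overlapped that of every VQ library. Against wild-type cells without a class II UMI the lymph node difference was -0.68 on the log2 scale and was not called (adjusted p = 0.197).

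Itgb2, the beta 2 partner of Itgal, is not one of the 10 genes but completes LFA-1. It had 34 UMIs in wild-type cells, 35 and 14 in VQ bone marrow and 5 in the lymph node, or 203, 31.5, 30.1 and 6.03 CPM. The fall in bone marrow was 2.70 on the log2 scale (SE 0.38, adjusted p = 7.72e-11) and that in the lymph node 5.03 (SE 0.55, adjusted p = 1.23e-17). The wild-type cells with and without a class II UMI held 29 and 5 UMIs (199 and 86.3 CPM without TMM), and against the cells without one the bone marrow change was -1.45 and was not called. Of the VQ bone marrow UMIs, 14 of 35 and 9 of 14 lay in cells with other-type markers. Without those cells the change from wild type was -3.62 (adjusted p = 7.96e-15). The lymph node was below VQ bone marrow by 2.33 on the log2 scale (adjusted p = 0.00275), and without the cells with other-type markers that difference was -1.50 and was not called (adjusted p = 0.286).

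**Figure D3:**
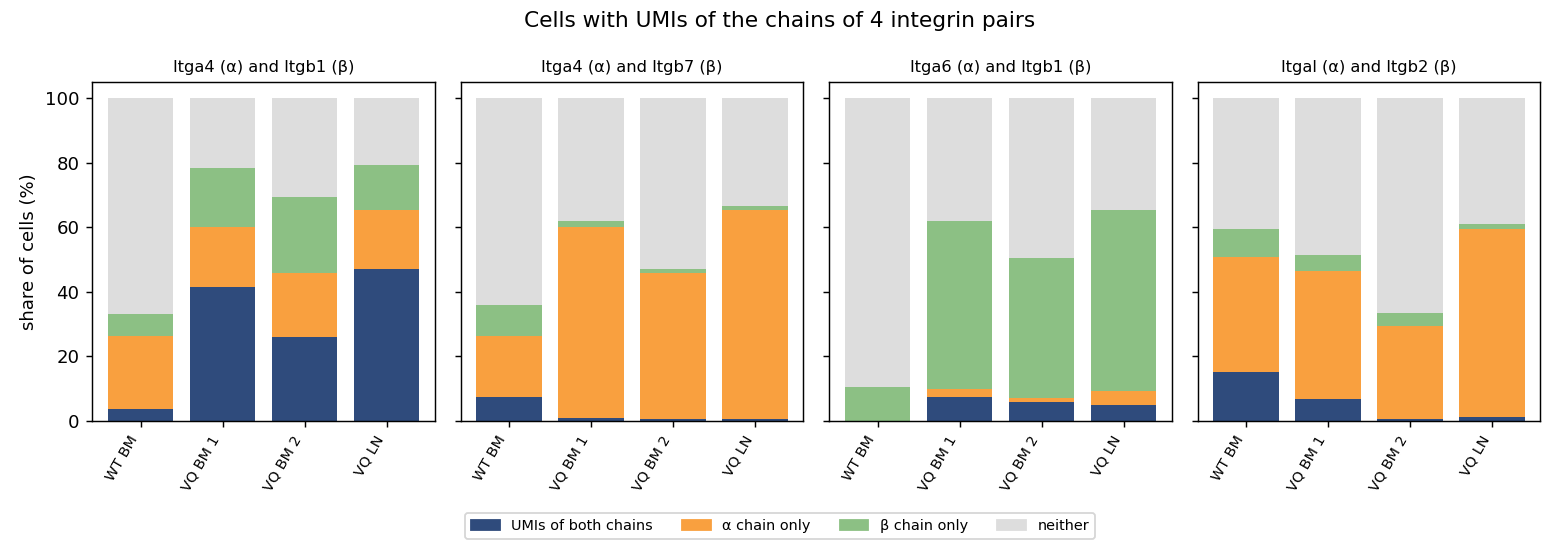
Share of kept cells (%) in each library with UMIs of both chains, the alpha chain only, the beta chain only or neither, for 4 integrin pairs, in cells as deposited. Cells with both Itga4 and Itgb1 make up 3.77% of wild-type cells and 25.9% to 47.0% of VQ cells, and depth per cell differs between the libraries.

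In cells as deposited, UMIs of the 2 chains read in the same cell followed these levels. Both Itga4 and Itgb1 were seen in 4 of 106 wild-type cells (3.77%, 95% exact interval 1.04 to 9.38), 94 of 226 (41.6%) and 44 of 170 (25.9%) VQ bone marrow cells and 87 of 185 lymph node cells (47.0%). Itga4 with Itgb7 was seen in 8 of 106 wild-type cells (7.55%, 3.31 to 14.3) and in 2, 1 and 1 VQ cells. Itgal with Itgb2 was seen in 16 wild-type cells (15.1%) and in 15, 1 and 2 VQ cells, while Itga6 with Itgb1 was seen in 0 wild-type cells and in 17, 10 and 9 VQ cells. Thinned to 500 UMIs, cells with both Itga4 and Itgb1 numbered 0 of 100, 7 of 221, 6 of 151 and 3 of 185, too few to give an order. Those with both Itga4 and Itgb7 numbered 1, 1, 0 and 0 of the same cells, which gives no order either. Thinned cells with both Itgal and Itgb2 numbered 1, 2, 1 and 0, and those with both Itga6 and Itgb1 numbered 0, 1, 0 and 0. These pairs gave no order at equal depth. The VQ cells were read more deeply, so the larger share of cells with both Itga4 and Itgb1 cannot be told apart from depth.

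Most other integrin subunits had too few UMIs to be tested. Of 21 listed, 6 were at 0 in every library, 15 had UMIs in at least 1 library and 4 passed the filter, with 1 higher and 1 lower (Itgb2) in VQ bone marrow and a median of 0.38. The higher gene was Itga1, the alpha 1 chain of a collagen receptor, with 0 UMIs in wild-type cells and 57, 22 and 37 in the VQ libraries, at least 2.80-fold higher in VQ bone marrow (adjusted p = 0.000517). In the lymph node Itgb5, the beta 5 chain, was also higher than wild type (35.8 against 111 CPM, adjusted p = 0.00967). Itgb5 had only 6 UMIs in wild-type cells. Its log2 fold change ranged from 1.16 to 9.10 across the settings, and not every setting kept the call. Of 26 genes that activate or anchor integrins, 19 were tested, with 1 called higher and 2 lower in bone marrow against wild type and 1 higher and 6 lower in the lymph node, and medians of -0.21 and -0.54. Over all genes tested, the shares called were 29.9% in bone marrow and 28.7% in the lymph node. Ptk2b, the focal adhesion kinase PYK2, fell from 316 CPM to 38.8 and 40.9 in bone marrow (adjusted p = 8.38e-19) and 34.9 in the lymph node (adjusted p = 3.47e-16). Lims1, the integrin-linked kinase partner PINCH1, fell from 245 to 38.8 and 45.2 CPM in bone marrow (adjusted p = 3.64e-12). Parvb, another partner of that kinase, had 0 UMIs in wild-type cells and 38, 15 and 26 in the VQ libraries, at least 1.88-fold higher in VQ bone marrow (adjusted p = 0.00654). Itga1 and Parvb, like Itga6, reached the test only through their VQ counts, and so did Hmmr and Tspan3, described below.

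Epcam, an epithelial adhesion molecule of homotypic contacts, rose the most of those of the 10 genes that had wild-type UMIs. It lies on chromosome 17 from 87635979 to 87651129. Wild-type cells had 14 UMIs (83.6 CPM), VQ bone marrow cells 753 and 313 (679 and 674 CPM) and lymph node cells 589 (710 CPM), so the VQ libraries were alike and far above the wild-type library. The bone marrow mean of 676 ± 3.63 CPM (SD, n = 2) was 8.10-fold higher (95% counting interval 4.81 to 14.9; log2 fold change 3.01, SE 0.29, adjusted p = 1.20e-22), and the lymph node was 8.49-fold higher (adjusted p = 1.67e-21). The call held under every alternative that gave a test, with a bone marrow log2 fold change of 2.50 to 3.63.

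The rise in Epcam was spread over most VQ cells. An Epcam UMI was found in 11 of 106 wild-type cells (10.4%, 95% exact interval 5.30 to 17.8), 178 of 226 (78.8%) and 112 of 170 (65.9%) VQ bone marrow cells and 147 of 185 lymph node cells (79.5%). Thinned to 500 UMIs, the shares were 2.0%, 24.9%, 27.2% and 24.9%, so the gap stood at equal depth. As background, 1 of 29 wild-type cells with B cell precursor markers, which lie outside the rule and had a median of 3005 UMIs, held an Epcam UMI. At least 5 UMIs were found in 0, 68, 17 and 47 cells, and the highest cell of each library held 2, 17, 11 and 16. Of 4 epithelial markers, Krt18, a keratin, had 0, 45, 29 and 41 UMIs and Cdh1, E-cadherin, 0, 10, 2 and 12, while Krt8 and Krt19 were at 0 in every library. Krt18 and Cdh1 were thus at 0 in the wild-type library and had UMIs in all VQ libraries, where Epcam was higher, and whether epithelial RNA has a part in the result was not tested.

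**Figure D4:**
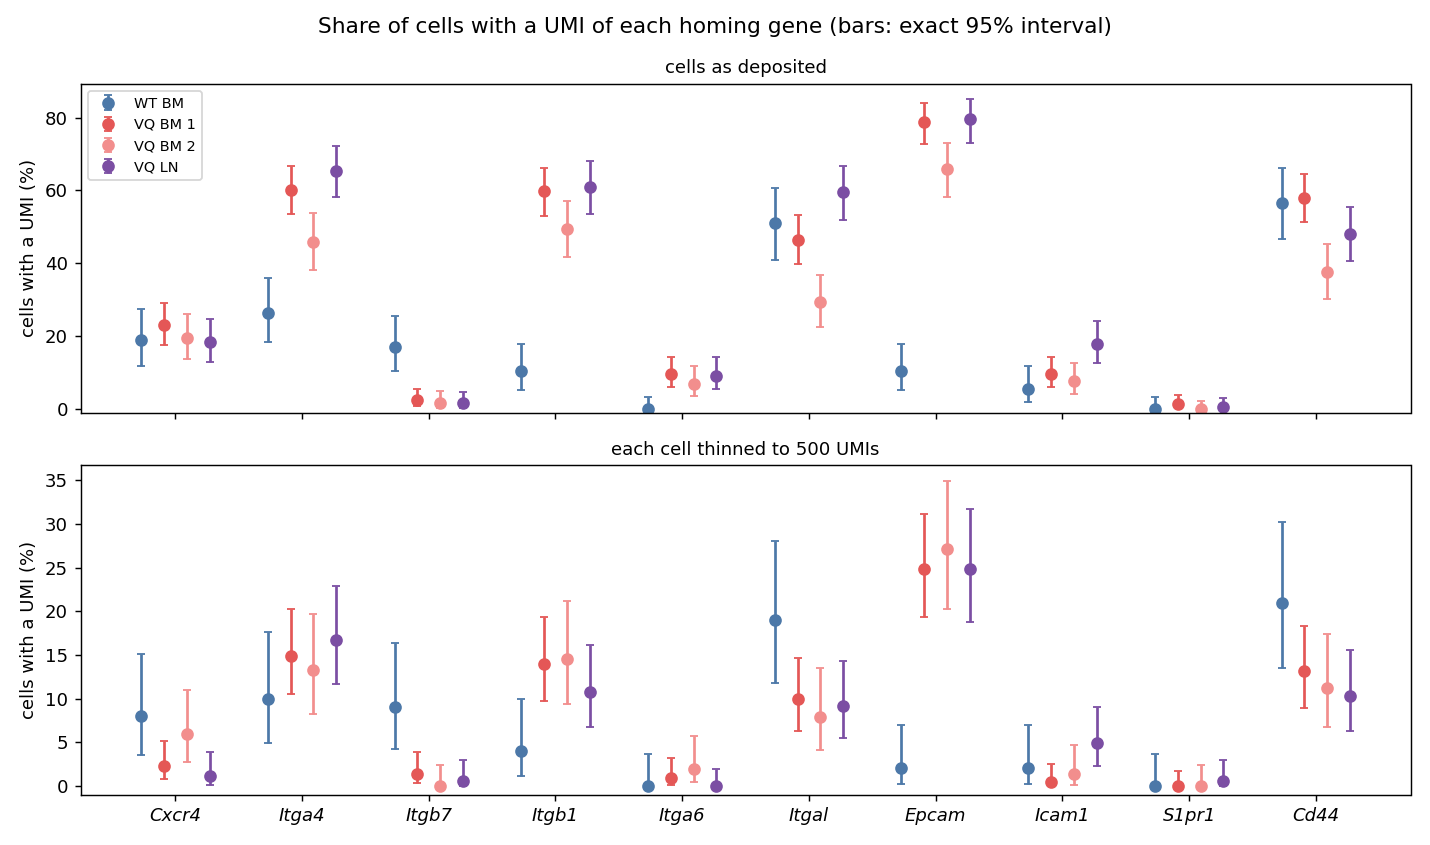
Share of kept cells (%) with a UMI of each gene, as deposited (upper panel) and with each cell thinned to 500 UMIs (lower panel), with points for the 4 libraries and bars for the exact 95% interval. The Epcam share lies between 24.9% and 27.2% in the thinned VQ libraries and at 2.0% in the wild-type library.

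Cd44, the hyaluronan receptor, lies on chromosome 2 from 102811141 to 102901665, where a small nuclear RNA gene, Gm23731, overlaps it on the opposite strand. It had 111 UMIs in wild-type cells, 268 and 105 in VQ bone marrow and 166 in the lymph node, or 663, 242, 226 and 200.04 CPM. Every VQ library was below the wild-type library. The bone marrow mean of 234 ± 11.03 CPM (SD, n = 2) was 2.80-fold lower (95% counting interval 2.24 to 3.47; log2 fold change -1.49, SE 0.21, adjusted p = 2.60e-11) and the lymph node was 3.31-fold lower (adjusted p = 1.69e-11). The share of cells with a UMI was 56.6% in wild-type cells and 58.0%, 37.6% and 48.1% in VQ cells as deposited, and 21.0%, 13.1%, 11.3% and 10.3% when thinned. The thinned wild-type interval (95% exact, 13.5 to 30.3) overlapped that of every VQ library.

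Icam1, the ligand of LFA-1, lies on chromosome 9 from 21015985 to 21028817 and overlaps an antisense gene, Gm47079. It had 8 UMIs in wild-type cells, 23 and 13 in VQ bone marrow and 43 in the lymph node, or 47.8, 20.7, 28.0 and 51.8 CPM. The lymph node level was above both bone marrow libraries and near the wild-type level. The bone marrow difference from wild type was not called (log2 fold change -1.04, SE 0.62, adjusted p = 0.201), nor was that of the lymph node (0.12, SE 0.58, adjusted p = 0.901).

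S1pr1, the egress receptor, was barely detected. It had 0 UMIs in the 106 wild-type cells, 4 and 0 in VQ bone marrow and 1 in the lymph node, and it was not tested. Zero of 106 wild-type cells allows a share of up to 2.83% of cells with a UMI, so a difference was not detectable at this depth. Of 12 other genes of the sphingosine 1-phosphate pathway, 7 were tested, with 1 called higher and 2 lower in bone marrow against wild type and 0 higher and 3 lower in the lymph node (Cd69, Sphk2 and Sgpp1, the last named after its value was seen), and medians of -0.85 and -1.34. Over all genes tested, 29.9% were called in bone marrow and 28.7% in the lymph node. Cd69, whose protein removes S1PR1 from the surface, fell from 16 UMIs in wild-type cells to 0 in both bone marrow VQ libraries and 2 in the lymph node, at least 50.1-fold lower in bone marrow (adjusted p = 1.19e-08). Cd69 reached the test only through the wild-type library, where it is high. Its calls, counted among the lower genes of this list, therefore carry no weight. Klf2, a transcription factor that drives S1pr1, was at 95.5 CPM in wild-type cells and rose to 176 and 217 in VQ bone marrow (log2 fold change 1.01, adjusted p = 0.0172). Sphk2, a sphingosine kinase, fell from 77.6 to 25.2 and 21.5 CPM (adjusted p = 0.00895), but against wild-type cells without a class II UMI its log2 fold change was 0.49 and was not called. The Klf2 call was lost with DESeq2 (1.04, adjusted p = 0.418).

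**Figure D5:**
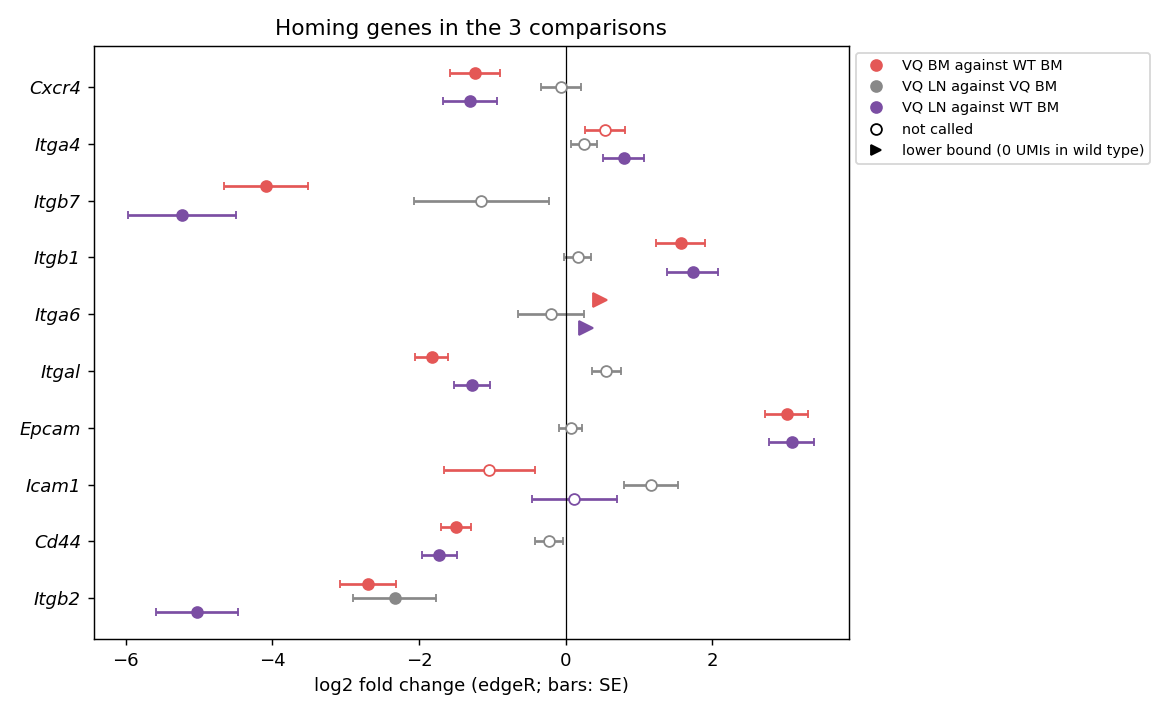
Log2 fold changes of 9 homing genes and Itgb2 in the 3 comparisons, with bars for the standard error, filled points for an edgeR adjusted p under 0.05 and triangles for the lower bound of Itga6, which had 0 UMIs in wild-type cells. The bone marrow and lymph node points against wild type share 1 wild-type library, and only Itgb2 is filled in the comparison of lymph node with bone marrow.

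Lymph node and bone marrow VQ cells were compared to ask which homing genes differ with the site, although the lymph node is 1 library, so site and library cannot be told apart. By edgeR 0 of the 9 genes were called, beside 3.13% of all genes (1.86% higher and 1.27% lower), 2 had an unadjusted p under 0.05 (Itgal and Icam1), and DESeq2 called 0. The median was 0.07 over the 9 genes and -0.02 over all genes. Icam1 was 2.27-fold higher in the lymph node (95% counting interval 1.42 to 3.63; log2 fold change 1.16, SE 0.37, adjusted p = 0.0504). With the cells with other-type markers left out it was called (1.20, adjusted p = 0.0418). Itgal was 1.47-fold higher (1.21 to 1.78; adjusted p = 0.107). The ratio of lymph node to bone marrow was 1.05 for Epcam (0.946 to 1.16), 1.13 for Itgb1 (0.963 to 1.33), 1.19 for Itga4 (1.03 to 1.39), 0.966 for Cxcr4 (0.687 to 1.34) and 0.844 for Cd44 (0.699 to 1.02), intervals that cover counting error only. Those for Itgb7 (0.438, 0.0800 to 1.59) and Itga6 (0.875, 0.471 to 1.57) were wide.

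Genes of the other lists were called between the lymph node library and the bone marrow pair. Among 25 tested of 45 other adhesion genes, 2 were higher and 1 lower in the lymph node, with a median of 0.06, beside 3.13% of all genes called. Bst2, tetherin, an interferon-induced surface protein, rose from 188 and 215 CPM to 456 (log2 fold change 1.19, adjusted p = 2.88e-09), and Spn, the sialophorin CD43, rose from 53.2 and 62.4 to 127 (1.17, adjusted p = 0.000170). Cd24a, a P-selectin ligand, fell from 1679 and 1855 CPM to 816 (log2 fold change -1.11, adjusted p = 6.17e-12). Klf2 fell from 176 and 217 CPM to 73.5 (-1.38, adjusted p = 5.02e-07) and Rap1b, a GTPase that activates integrins, from 460 and 480 to 300.1 (-0.64, adjusted p = 0.0123). The calls of Bst2, Spn, Klf2 and Rap1b were lost with DESeq2 and that of Cd24a was kept (adjusted p = 0.00252). All 5 calls were lost with a preset coefficient of variation and in cells with no UMI of a cell cycle gene. In those cells the Spn difference was 0.05 on the log2 scale. Cxcr6 and Ccr2, chemokine receptors of T cells and monocytes, had 31 and 28 UMIs in VQ bone marrow and 0 in the lymph node (adjusted p = 0.00378 and 0.0103). Both reached the test only through VQ bone marrow, where they are high. Neither passed the count filter once the cells with other-type markers were left out, and Ccr2 was itself one of the macrophage and monocyte markers.

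Against wild-type cells, the 25 tested adhesion genes held 8 higher and 5 lower in the lymph node, with a median of 0.33, and 5 of each in VQ bone marrow, with a median near 0. Over all genes tested, 28.7% were called in the lymph node and 29.9% in bone marrow. The genes higher in bone marrow were Tspan3, Hmmr, Cd24a, Tspan13 and Adam10, and Cd53, Alcam, Cd2, Cd81 and Cd93 were lower in both tissues, the names beyond the naming rule being given after their values were seen. Cd53, a leukocyte tetraspanin, fell from 651 CPM to 91.0 and 83.9 in bone marrow and 81.9 in the lymph node (adjusted p = 6.61e-33 and 9.48e-27), and Alcam, the ligand of CD6, from 203 to 32.4, 23.7 and 32.5 CPM (adjusted p = 1.43e-11 and 7.01e-09). Tspan3, another tetraspanin, had 2 UMIs in wild-type cells and 151 and 72 in VQ bone marrow (11.9 against 136 and 155 CPM). It reached the test only through its VQ counts, so its call carries no weight. Its bone marrow log2 fold change ranged from 1.56 to 9.47 across the settings, and some of them lost the call. Hmmr, a hyaluronan receptor that also serves the mitotic spindle, had 0 UMIs in wild-type cells and 43, 12 and 30 in the VQ libraries (adjusted p = 0.00553 in bone marrow). Of 21 niche ligands such as Cxcl12 only Ccl25 passed the filter, with 0, 12 and 8 UMIs in wild-type, VQ bone marrow and lymph node cells, and it was called in no comparison (adjusted p = 0.359, 0.963 and 0.327 for bone marrow against wild type, lymph node against bone marrow and lymph node against wild type).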

How the data were processed

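Each deposited table gives unscaled UMI counts for every gene in every cell, as the authors made it. Libraries were made on the ddSEQ instrument with the SureCell 3′ kit per the labels' protocols. Per the submitters' processing notes, the genome build is mm10. The aligner and whether counting used strand are not given in the sources used here. Groups came from the sample titles.

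Counts were summed per library over the kept cells and compared with edgeR 4.0.16 in R 4.3.3: filterByExpr, TMM scaling and 1 quasi-likelihood fit of 3 group means to 4 libraries, with Benjamini-Hochberg adjustment over all 8286 genes. The fit has 1 residual degree of freedom, so wild type and lymph node, with 1 library each, borrow their spread from the bone marrow pair (common coefficient of variation 0.0928). An SE is the absolute log2 fold change over the square root of F. Intervals are exact (Poisson for levels, conditional binomial for folds, Clopper-Pearson for shares), at 95%, and cover counting error only. A fold against 0 counts uses a floor of 3 counts over the group, and a share of 0 is given the limit of 3 counts over the number of cells. Thinning drew 500 UMIs per cell without replacement. The fit was tested on simulated data, in which changed genes were limited to those with enough expected wild-type counts. The first bound set for the number of strong falls called was not met and was loosened after the result was seen. Power for falls is thus limited by the wild-type depth.

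Jchain alone took 20.4% of the UMIs of the kept wild-type cells. With library totals in place of TMM the median log2 fold change of all genes moves by 0.36 (bone marrow) and 0.33 (lymph node) against wild type, and calls move from 1420 higher and 1058 lower to 2141 and 713 in bone marrow, and from 1361 and 1014 to 2024 and 717 in the lymph node.

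The 10 genes, the gene lists and the cell type markers were chosen with earlier results of these data known. Named were the 10 genes, Itgb2, Jchain, Sdc1, Ptprc, Myc and Nras, and of each list up to 2 called genes per direction with the largest absolute log2 fold change. The alternatives were 12 planned settings, among them DESeq2 1.42.0, and 2 added after seeing the data (wild-type cells split by an MHC class II UMI). Gene positions are from GENCODE vM21 and promoters from RefSeq. Figures used matplotlib 3.10.9.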

Additional observations from a re-analysis of the deposited data

How the results depend on the processing

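Across the 15 calls of the 10 genes against wild type, alternatives with a test gave 174 values: 131 kept direction and call, 41 kept direction but lost the call, 0 reversed and 2 had no adjusted p. The 15 calls, and the 7 and 8 genes called below, include Itga6 and Itgb7, whose calls carry no weight. Their values are part of these counts, which therefore do not measure how firm the calls are. In VQ bone marrow 7 genes were called, 4 with DESeq2, 2 with thinned cells and 1 in cells with no UMI of a cell cycle gene. In the lymph node 8 were called against wild type, 3 with DESeq2, 5 with a preset coefficient of variation of 0.2, 3 with thinned cells, 1 in cells with no cycle gene UMI and 4 against wild-type cells without an MHC class II UMI. Lymph node against bone marrow gave 0 and, with the cells with other-type markers left out, 1. Over all genes, calls in bone marrow against wild type numbered 2478 of 8286 tested. They were 423 of 12852 with DESeq2, 1644 of 8286 with the preset coefficient and 180 of 3761 in cells with no cycle gene UMI. Thinned cells gave 469 of 2549, and wild-type cells without class II 1030 of 8381. The lymph node gave 2375 against wild type, and 353, 1490, 92, 407 and 1063 in the same order, with the same numbers tested. Lymph node against bone marrow gave 259, and 17, 82, 1 and 35 under the first 4 of these alternatives. It gave 161 of 8311 with a Jchain threshold of 2% and 107 of 8569 over all cells. The numbers tested differ, so these counts are not shares. Sphk2 reversed against wild-type cells without class II, to 0.49 in bone marrow and 0.49 in the lymph node, not called. The thinned and no-cycle settings use fewer UMIs or cells, and some of the 15 calls had no value in them. The cause of the other changes was not tested. Leaving out either VQ bone marrow library left no residual degrees of freedom, so it gave values with no test, and all 30 values of the called genes kept their direction. No paired analysis was possible because only the VQ bone marrow libraries carry replicate numbers. Depth limits genes with few wild-type UMIs most (Itga6, S1pr1, Icam1).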

Other observations

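The VQ bone marrow cells left out by the Jchain rule, 19 cells of library 1 and 18 of library 2 with at least 5% Jchain, were shallow (medians of 1064 and 699.5 UMIs). They held 4 and 0 Myc UMIs and 16 and 9 Sdc1 UMIs. Of the homing genes, Cd44 had 15 and 3 UMIs, Itgal 7 and 6, Cxcr4 2 and 5, Epcam 5 and 3, Itga4 3 and 2, Itgb7 0 and 2 and Itgb1 0 and 2, with 0 for Itga6, Icam1 and S1pr1. With so few UMIs no level was compared. The lymph node library had no such cell.

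The 57 wild-type cells under the 5% Jchain threshold had more Itga4 than the kept wild-type cells, at 433 CPM (95% counting interval 330 to 559) against 167 CPM (115 to 233) without TMM scaling, and less Itgal, at 176 CPM (113 to 262) against 466 CPM (377 to 569). They come from the same library and 29 of them carry B cell precursor markers, so this is a description of 1 library with no test. Itga4 was at 349 CPM (243 to 486) in these 29 cells and at 666 CPM (427 to 991) in the other 28. Itgal was at 120 CPM (61.9 to 209) and 333 CPM (172 to 582) in the same order.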
